A study of Mus musculus with 18 samples.

Results

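The 37 genes described here are transcripts of macrophages and other myeloid cells, together with the class II antigen presentation genes, measured by RNA-seq in sorted mouse pancreatic beta cells. They were taken from a list of gene names, without a threshold on their values but with earlier results of these data known, and make up 37 of the 53090 gene IDs counted in 18 libraries. The libraries fall into 4 groups. LIRKO HFD has 3 libraries from mice with a liver-specific knock-out of the insulin receptor kept on HFD, taken here to mean high-fat diet, and LIRKO chow has 4 libraries from such mice on chow. Ctrl HFD has 5 libraries and Ctrl chow has 6, from mice labelled Ctrl on the same diets. The labels name no Cre driver, strain, sex or age, and the targeted gene is deleted in the liver, so these beta cell libraries cannot check the knock-out. Islets were handpicked, cultured overnight and dispersed, and cells were gated on forward scatter and sorted on their endogenous fluorescence, with no antibody against leukocytes named. Nothing in the labels ties a library to an animal, so the p-values reflect how far these libraries differ from each other, part of which may be technical.

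Macrophages are the main resident leukocytes of the islet in healthy mice, where they lie beside blood vessels and beta cells, take up material from beta cells and display peptides on MHC class II. They depend on the lineage transcription factor PU.1 and on signals through the CSF1 receptor, and they sense antibody, lipid and debris through receptors that signal by the adaptors DAP12 and FcR gamma. Obesity is known to change their number and state in several tissues, the islet among them. Beta cells themselves are not known as a main source of most of these transcripts.

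All 37 genes were detected in all 18 libraries, with at least 5 counts in each, and all 37 passed the filter on low counts. Levels are given as CPM, counts per 1e6 reads on scaled library sizes. The summed level of the 37 genes was 717, 896 and 829 CPM in the LIRKO HFD libraries and 193, 195, 518 and 454 CPM in LIRKO chow. It was 525, 484, 981, 1090 and 444 CPM in Ctrl HFD, and 306, 518 and 651 CPM as the lowest, median and highest of Ctrl chow, which is how the 6 Ctrl chow libraries are given throughout. The sums of LIRKO HFD lay above all 4 of LIRKO chow, and the sums of the 2 Ctrl groups overlapped. C1qa, whose highest value was only 1.72 times its lowest, made up 30.7% and 32.6% of the sum in LIRKO chow replicates 1 and 2. Its share was 15.7% and 16.8% in replicates 3 and 4, 12.4%, 8.1% and 7.41% in LIRKO HFD, and 5.95% to 24.2% in the Ctrl groups. The highest sum, in Ctrl HFD replicate 4, came from 34552 of the 29101927 counts of that library. The 2 insulin genes held 8.97% to 18.7% of the counts of a library. In bulk libraries, fewer cells of a type and less RNA per cell cannot be told apart.

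Total counts ran from 34790225 to 38795120 in LIRKO HFD, 37138131 to 51714775 in LIRKO chow, 19490235 to 35281010 in Ctrl HFD and 24979993 to 43987306 in Ctrl chow. The LIRKO chow libraries form 2 near-identical pairs. The median absolute deviation of the log2 ratio over 11368 genes was 0.0941 between replicates 1 and 2 and 0.109 between 3 and 4, against at least 0.179 in the other 32 pairs within groups. The median chi-square per gene was 1.67 and 1.73, against 0.455 from counting noise alone. An excess over counting noise does not show whether these are 4 samples or repeats of 2, and the labels do not settle it. They enter the tests as 4 libraries, as labelled, and the results are also given with each pair summed. Ctrl HFD replicates 1 and 2 stand apart over the same 11368 genes, with a median absolute deviation of 0.645 to 0.846 against replicates 3, 4 and 5. Between replicates 1 and 2 it was 0.254. Their share of the nuclear RNA Malat1 was also high, at 1.37% and 1.06% of counts against 0.0866% to 0.6% elsewhere.

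The position of single libraries within a group recurs over the genes. LIRKO chow replicates 1 and 2 were both below replicates 3 and 4 in 37 of 37 genes and below all 6 Ctrl chow libraries in 31, while replicates 3 and 4 lay inside the range of Ctrl chow in 31. Ctrl HFD replicates 3 and 4 were above the other 3 Ctrl HFD libraries in 30 genes, and Ctrl chow replicates 5 and 6 were below the other 4 in 31. The level of these genes therefore varied within groups as well as between them, and the same few libraries were high or low for most of the genes.

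**Figure D1:**
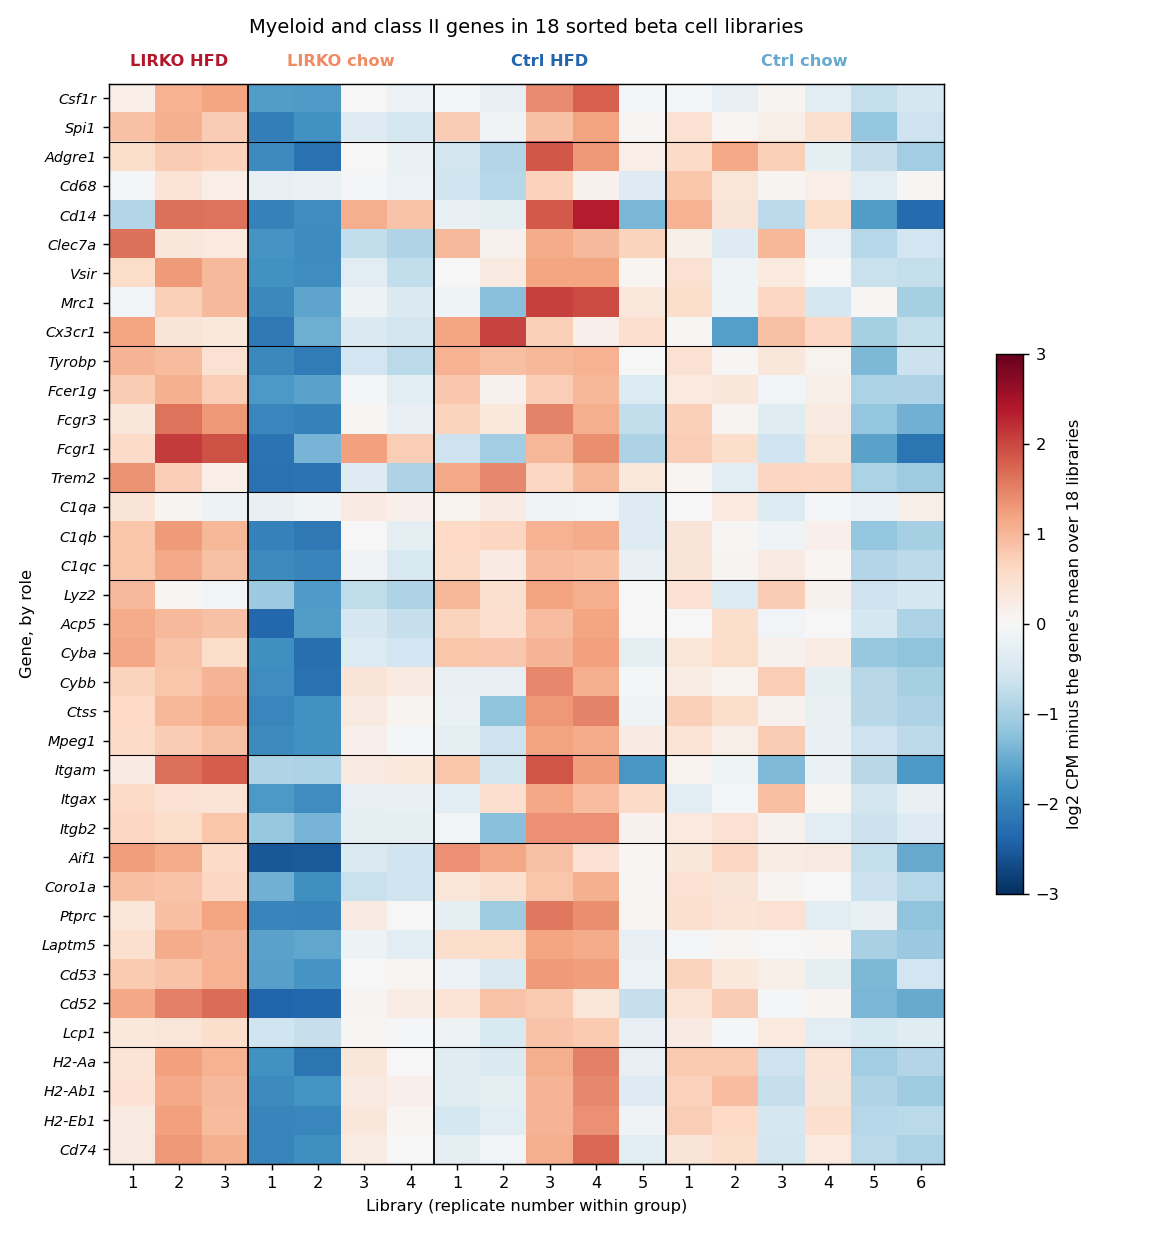
Log2 CPM of each of the 37 genes (rows, by role) in each of the 18 libraries (columns, by group and replicate number), as the difference from the gene's mean over all libraries. Red is above and blue below that mean. LIRKO chow replicates 1 and 2 are blue in nearly every row, C1qa is pale throughout, and Ctrl HFD replicates 3 and 4 are red in most rows.

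Per kb of exonic length, C1qa was highest, with a mean over the 4 groups of 67.3 CPM per kb. The length is that of all annotated exons of a gene merged, which can exceed the length of the transcript present. It was 1040 bases for C1qa and 18313 for Ptprc, so levels are only roughly comparable between genes and those with long merged exons may be understated. Cd74 followed at 46.8, Ctss at 29.7, Lyz2 at 24.5, C1qb at 19.6, Mpeg1 at 15.8, H2-Eb1 at 15.6 and Cd68 at 15.2 CPM per kb. The integrin gene Itgam, at 0.341 CPM per kb, the mannose receptor gene Mrc1, at 0.365, and the CD45 gene Ptprc, at 0.41, were lowest. Of the exonic length of Itgam, 68.67% is shared with Gm49368 on the same strand. How reads in that stretch were counted is not stated in the sources used here, so the level of Itgam may be understated. On this measure, transcripts of complement, antigen presentation and the lysosome stood above those of integrins and of the lineage factor Spi1, which was at 0.85 CPM per kb.

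The diet comparison within LIRKO asks how HFD and chow libraries of the knock-out differ. All 37 genes had a higher mean fitted level on HFD, and 12 rose past an adjusted p of 0.05 in edgeR's quasi-likelihood test, where 1.06% of all 19284 genes tested were called higher and 2.03% in either direction. None was called lower, where 0.975% of all genes were. At an unadjusted p under 0.05 there were 33 of the 37, against 16.5% of all genes. The median log2 fold change of the 37 was 1.52, against 0.03 over all genes. The 12 were Acp5, Coro1a, Clec7a, Tyrobp, Vsir, C1qc, Spi1, Trem2, Aif1, Laptm5, Cyba and Lyz2. In 32 of the 37 every LIRKO HFD library lay above every LIRKO chow library, as it did in 16.1% of all genes. None showed the opposite, which 18.3% of all genes did.

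That count depended on which libraries were in the fit. Without LIRKO chow replicates 1 and 2 none of the 37 passed, the median was 0.96 and 36 of 37 stayed above 0. The smallest adjusted p was 0.229, in a fit that called 3 of all genes. Without replicates 3 and 4 instead, 27 passed, beside 787 of all genes, and the median was 2.76. With each near-identical pair summed to 1 library, none passed, the median was 1.499 and the smallest adjusted p was 0.133. DESeq2 on the 4 libraries called 19, beside 1077 of all genes. Leaving out 1 library at a time, 1 gene (Acp5) passed without LIRKO chow replicate 1 and none without LIRKO chow replicate 2. Each of these 2 fits called 55 of all genes, against 392 in the main fit. Without LIRKO HFD replicates 1, 2 and 3 in turn, 3, 2 and 4 genes passed, beside 100, 56 and 67 of all genes.

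**Figure D2:**
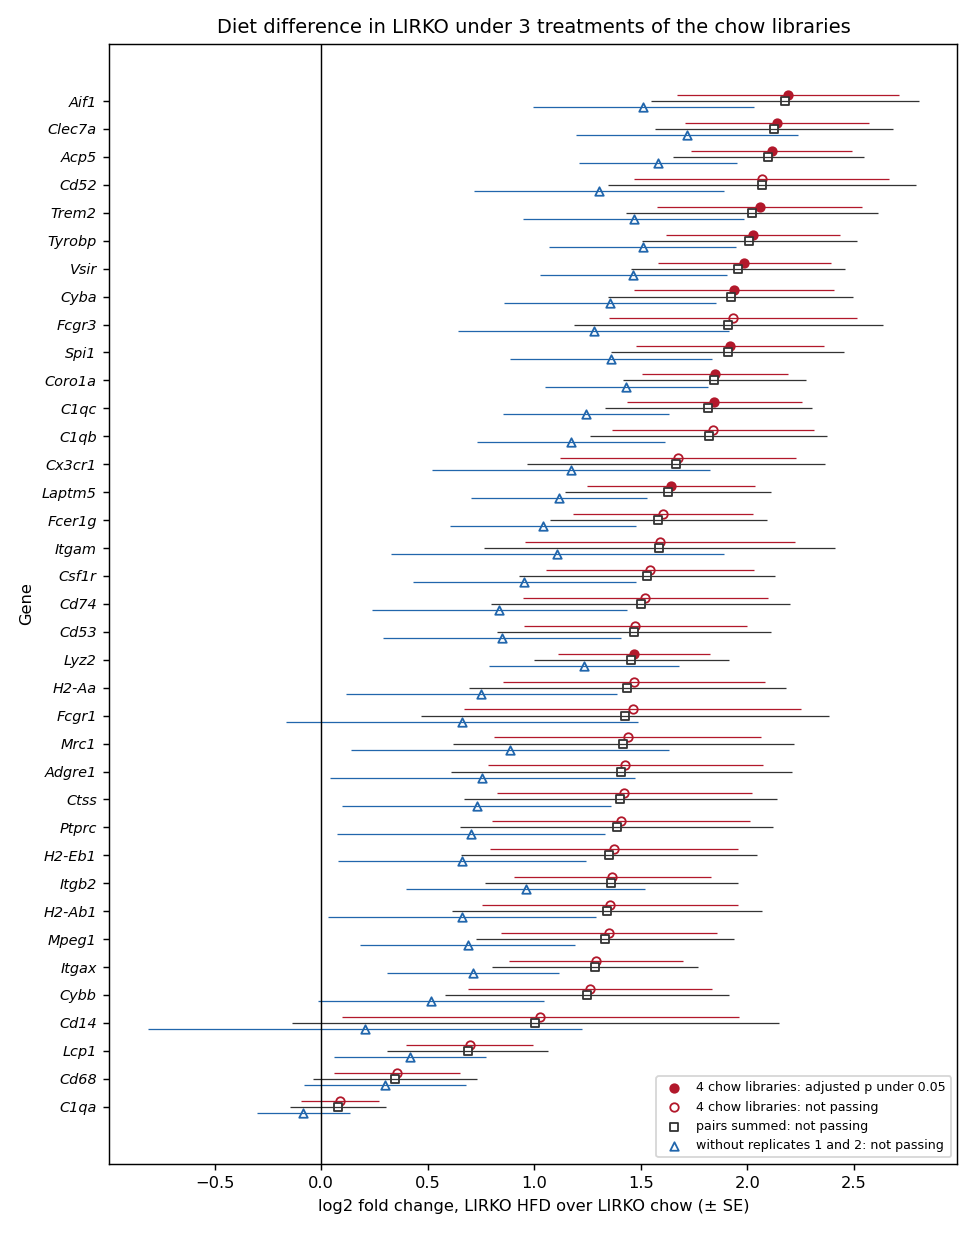
Log2 fold change of LIRKO HFD over LIRKO chow (x axis, with SE) for each of the 37 genes (rows), with all 4 chow libraries (circles, filled where the adjusted p is under 0.05), with each near-identical pair summed (squares), and without LIRKO chow replicates 1 and 2 (triangles). Summing the pairs leaves the estimates in place and widens the bars, and leaving out replicates 1 and 2 moves them towards 0, with C1qa passing below 0.

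Of the lineage genes, Spi1 encodes PU.1, the transcription factor that directs myeloid development. Spi1 was at 3.43, 3.88 and 3.16 CPM in LIRKO HFD libraries, against 0.441, 0.524, 1.42 and 1.29 CPM in LIRKO chow. It was at 3.13, 1.72, 3.4, 4.31 and 1.9 CPM in Ctrl HFD and 0.832, 2.01 and 2.59 CPM in Ctrl chow. All LIRKO HFD libraries lay above all LIRKO chow and all Ctrl chow libraries and inside the range of Ctrl HFD. Spi1 rose on HFD in LIRKO with a log2 fold change of 1.92 (SE 0.44, adjusted p = 0.0306). Csf1r encodes the receptor for CSF1 and IL-34, on which macrophages depend for survival. Csf1r was at 10.7, 19.1 and 21.1 CPM in LIRKO HFD, against 2.91, 2.87, 9.25 and 8.26 CPM in LIRKO chow. It was at 9.09, 7.87, 24.8, 31.9 and 8.87 CPM in Ctrl HFD and 5.64, 7.6 and 9.86 CPM in Ctrl chow. The HFD libraries of LIRKO were above the chow libraries without overlap, while among Ctrl HFD only replicates 3 and 4 exceeded the Ctrl chow range. The diet difference of Csf1r in LIRKO was 1.54 on the log2 scale (SE 0.49, adjusted p = 0.113). Of its exonic length, 15.12% is shared with Hmgxb3 on the opposite strand, and whether counting used strand is not stated in the sources used here.

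Among the surface markers and lectins, Clec7a, encoding the beta-glucan receptor Dectin-1, was at 20.1, 8.04 and 7.89 CPM in LIRKO HFD libraries, against 1.89, 1.72, 3.85 and 3.43 CPM in LIRKO chow. It was at 12.5, 6.98, 13.8, 12.6 and 10.1 CPM in Ctrl HFD and 3.54, 5.26 and 12.7 CPM in Ctrl chow. LIRKO HFD replicate 1 was the highest of all 18 libraries, and the LIRKO groups did not overlap. Its log2 fold change in LIRKO was 2.14 (SE 0.43, adjusted p = 0.0185). Vsir, encoding the inhibitory checkpoint ligand VISTA, was at 8.8, 14.5 and 11.8 CPM in LIRKO HFD, against 1.69, 1.65, 4.83 and 3.6 CPM in LIRKO chow. It was at 5.91, 7.22, 13.5, 13.6 and 6.21 CPM in Ctrl HFD and 3.61, 5.66 and 8.21 CPM in Ctrl chow. Every LIRKO HFD library exceeded every chow library of either genotype. Vsir rose with a log2 fold change of 1.99 (SE 0.41, adjusted p = 0.019).

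Adgre1, encoding the macrophage marker F4/80, was at 4.21, 4.99 and 4.69 CPM in LIRKO HFD libraries, against 0.784, 0.624, 2.94 and 2.53 CPM in LIRKO chow. It was at 1.99, 1.58, 10.6, 7.24 and 3.38 CPM in Ctrl HFD and 1.42, 3.41 and 6.39 CPM in Ctrl chow. The LIRKO groups did not overlap and the Ctrl groups did, and the diet difference in LIRKO was 1.43 on the log2 scale (SE 0.65, adjusted p = 0.276). Cx3cr1, the receptor for fractalkine, was at 7.84, 4.56 and 4.29 CPM in LIRKO HFD, against 0.784, 1.25, 2.56 and 2.36 CPM in LIRKO chow. It was at 7.84, 14.1, 5.68, 3.84 and 4.91 CPM in Ctrl HFD and 1.11, 2.85 and 6.33 CPM in Ctrl chow. Ctrl HFD replicate 2 was the highest of all libraries, and Cx3cr1 was 1 of only 4 genes, with C1qa, Aif1 and Trem2, in which Ctrl HFD replicates 1 and 2 both exceeded the other 3. Its diet difference in LIRKO was 1.67 (SE 0.55, adjusted p = 0.132). Cd68, encoding a lysosomal membrane glycoprotein, was at 17.7, 24.3 and 21.0 CPM in LIRKO HFD, against 15.5, 16.1, 17.7 and 16.4 CPM in LIRKO chow. It was at 12.2, 10.1, 29.6, 20.1 and 14 CPM in Ctrl HFD and 14.5, 20.3 and 32.6 CPM in Ctrl chow. Its highest value was 3.24 times its lowest, and the LIRKO difference was 0.36 (SE 0.30, adjusted p = 0.549). Cd14, the co-receptor for lipopolysaccharide, was the most variable of the 37, with a highest value 25.4 times its lowest, and LIRKO HFD replicate 1 was at 1.89 CPM beside 10.9 and 10.8 CPM in the other 2. Mrc1, the mannose receptor gene, ranged from 0.465 to 7.37 CPM and did not pass.

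The adaptor Tyrobp, which encodes DAP12, was at 10.8, 10.3 and 7.37 CPM in LIRKO HFD libraries, against 1.4, 1.25, 3.57 and 3.07 CPM in LIRKO chow. It was at 11.1, 10.0, 10.7, 11.1 and 5.41 CPM in Ctrl HFD and 2.1, 5.63 and 7.39 CPM in Ctrl chow. The LIRKO groups did not overlap, and 4 of the 5 Ctrl HFD libraries lay within 10.0 to 11.1 CPM, above all Ctrl chow libraries. Tyrobp rose on HFD in LIRKO with a log2 fold change of 2.03 (SE 0.41, adjusted p = 0.0185). Trem2, encoding a lipid-sensing receptor that signals through DAP12, was at 8.97, 5.82 and 4.03 CPM in LIRKO HFD, against 0.735, 0.748, 2.68 and 1.84 CPM in LIRKO chow. It was at 7.7, 9.5, 5.39, 6.93 and 4.33 CPM in Ctrl HFD and 1.68, 3.21 and 5.46 CPM in Ctrl chow. Each LIRKO HFD library was above each LIRKO chow library, and the log2 fold change was 2.06 (SE 0.48, adjusted p = 0.0318). The other adaptor, Fcer1g for FcR gamma, and the antibody receptors Fcgr3 and Fcgr1 had differences of 1.60, 1.93 and 1.46 with adjusted p-values of 0.056, 0.096 and 0.362. Over all libraries Fcer1g ranged from 1.35 to 9.33 CPM, Fcgr3 from 0.748 to 9.33 CPM and Fcgr1 from 0.563 to 11.1 CPM. All 5 genes of the group were higher on HFD in LIRKO by their estimate, and 2 passed.

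The 3 C1q genes encode the chains of the subunit that starts the classical complement pathway, and lie side by side on chromosome 4 in GRCm38. C1qb was at 29.4, 40.6 and 33.1 CPM in LIRKO HFD libraries, against 4.11, 3.79, 16.6 and 13.9 CPM in LIRKO chow. C1qc was at 18.3, 22.5 and 18.9 CPM in LIRKO HFD, against 2.74, 2.59, 9.48 and 7.3 CPM in LIRKO chow. Both chains separated the LIRKO diets without overlap, and C1qc rose with a log2 fold change of 1.85 (SE 0.41, adjusted p = 0.0273) while C1qb, at 1.84, had an adjusted p of 0.0519. In Ctrl HFD C1qb was at 25.3, 25.9, 34.5, 35.8 and 12.7 CPM, and in Ctrl chow at 7.4, 16.2 and 21.6 CPM. In Ctrl HFD C1qc was at 15.1, 12.1, 19.7, 19.2 and 8.77 CPM, and in Ctrl chow at 5.58, 10.8 and 13.4 CPM. C1qa was at 89.3, 72.5 and 61.4 CPM in LIRKO HFD, against 59.0, 63.5, 81.4 and 76.1 CPM in LIRKO chow. It was at 74.1, 81.4, 64.0, 64.7 and 52.8 CPM in Ctrl HFD and 51.8, 67.5 and 84.1 CPM in Ctrl chow. All 4 groups of C1qa overlapped, the highest value was 1.72 times the lowest, and the log2 fold change of HFD over chow in LIRKO was 0.09 (SE 0.18, adjusted p = 0.818). The ratio of C1qb to C1qc in CPM stayed between 1.25 and 2.15 over the 18 libraries. The ratio of C1qa to C1qb ran from 1.79, in LIRKO HFD replicate 2, to 14.4 and 16.8 in LIRKO chow replicates 1 and 2.

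**Figure D3:**
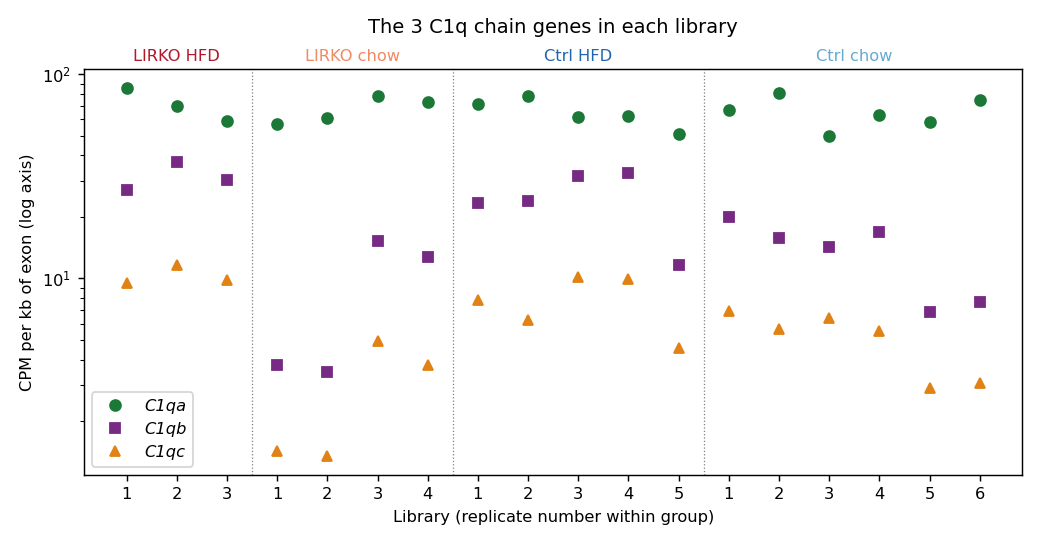
CPM per kb of exonic length (log axis) of C1qa, C1qb and C1qc in each of the 18 libraries, in the order LIRKO HFD, LIRKO chow, Ctrl HFD and Ctrl chow. C1qb and C1qc move in parallel and are lowest in LIRKO chow replicates 1 and 2, whereas C1qa stays in a narrow band above both.

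RefSeq and GENCODE M21 place the start of C1qc 151 bases apart. The 99 bases of its RefSeq promoter window that lie before both starts (GRCm38.p6 chr4:136893066-136893164, minus strand) are shown because C1qc passed and they hold the core of the PU.1 site, with PU.1 being the product of Spi1. Capitals mark TTCCTC, the opposite-strand reading of GAGGAA, 42 bases before the M21 start.
C1qc: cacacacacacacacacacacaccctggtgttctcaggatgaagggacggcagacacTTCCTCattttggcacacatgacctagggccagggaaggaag

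Promoter windows from RefSeq on GRCm38.p6, from 250 bases before to 50 after the start, were matched to 27 of the 37 genes. GAGGAA on either strand was in 15 of the 27 windows, against 31.3% of the windows of 27025 genes. A match is only a run of letters and does not show binding.

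Among the genes for lysosomal function, microbe killing and the NADPH oxidase, Acp5, encoding tartrate-resistant acid phosphatase, had the smallest p of the 37. It was at 21.9, 19.7 and 18.6 CPM in LIRKO HFD libraries, against 1.98, 3.14, 7.15 and 6.23 CPM in LIRKO chow. It was at 16.0, 14.4, 19.3, 22.8 and 9.96 CPM in Ctrl HFD and 5.29, 9.81 and 14.6 CPM in Ctrl chow. LIRKO HFD lay above all chow libraries of both genotypes, and the log2 fold change in LIRKO was 2.11 (SE 0.38, adjusted p = 0.0108). Lyz2, encoding lysozyme, was at 55.4, 29.1 and 26.4 CPM in LIRKO HFD, against 13.3, 8.68, 16.6 and 14.8 CPM in LIRKO chow. It was at 55.7, 39.1, 64.9, 59.9 and 28.2 CPM in Ctrl HFD and 18.2, 26.1 and 47.3 CPM in Ctrl chow. The 4 LIRKO chow values were the lowest of all 18 libraries, and Lyz2 rose on HFD in LIRKO by 1.47 (SE 0.36, adjusted p = 0.038). Cyba, the p22phox subunit of the oxidase, was at 12.3, 10.1 and 8.17 CPM in LIRKO HFD, against 1.54, 1.15, 4.19 and 3.73 CPM in LIRKO chow, without overlap. It was at 9.93, 9.64, 11.2, 13 and 4.57 CPM in Ctrl HFD and 2.41, 6.24 and 8.15 CPM in Ctrl chow. Cyba passed with a log2 fold change of 1.94 (SE 0.47, adjusted p = 0.0377). The catalytic subunit gene Cybb had 1.26 (adjusted p = 0.279), the protease gene Ctss 1.42 (adjusted p = 0.241) and the pore-forming Mpeg1 1.35 (adjusted p = 0.185). Over all libraries Cybb ranged from 1.05 to 13.4 CPM, Ctss from 8.18 to 88.8 CPM and Mpeg1 from 15.3 to 133 CPM. Of the 6 genes in the group, 3 rose and none fell.

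None of the 3 integrin genes passed. Itgax, encoding CD11c, was at 9.58, 8.68 and 8.57 CPM in LIRKO HFD libraries, against 1.96, 1.77, 5.39 and 5.49 CPM in LIRKO chow. It was at 5.21, 9.08, 14.3, 12.2 and 9.61 CPM in Ctrl HFD and 4.41, 5.83 and 12 CPM in Ctrl chow. LIRKO HFD libraries were above LIRKO chow and within the range of both Ctrl groups, with a difference of 1.29 (SE 0.41, adjusted p = 0.113). Itgam, encoding CD11b, ranged from 0.343 to 4.23 CPM and Itgb2, encoding the shared beta chain CD18, from 2.17 to 14.8 CPM.

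Of the pan-leukocyte and actin genes, Aif1, encoding the actin-binding protein IBA1, was at 7.08, 6.47 and 4.44 CPM in LIRKO HFD libraries, against 0.514, 0.524, 2.22 and 1.98 CPM in LIRKO chow. It was at 7.74, 6.7, 5.48, 4.06 and 3.09 CPM in Ctrl HFD and 1.04, 3.55 and 4.63 CPM in Ctrl chow. LIRKO chow replicates 1 and 2 were lowest of all libraries, the LIRKO groups did not overlap, and the log2 fold change of 2.19 (SE 0.52, adjusted p = 0.034) was the largest of the 37. Coro1a, encoding the leukocyte actin regulator coronin 1A, was at 7.75, 7.5 and 6.39 CPM in LIRKO HFD, against 1.52, 1.15, 2.62 and 2.72 CPM in LIRKO chow. It was at 5.31, 5.77, 7.4, 8.63 and 4.23 CPM in Ctrl HFD and 2.31, 4.3 and 5.68 CPM in Ctrl chow. Every LIRKO HFD library exceeded every chow library of either genotype, and Coro1a rose with 1.85 (SE 0.34, adjusted p = 0.0131). Laptm5, encoding a lysosomal protein of blood cells, was at 12.3, 19.1 and 17.8 CPM in LIRKO HFD, against 2.89, 2.99, 7.99 and 7.14 CPM in LIRKO chow. It was at 12.7, 13.0, 20, 19.1 and 7.47 CPM in Ctrl HFD and 4.08, 8.65 and 9.18 CPM in Ctrl chow. Laptm5 rose with 1.64 (SE 0.40, adjusted p = 0.0363). Ptprc, encoding CD45, which marks leukocytes of all kinds, was at 7.61, 11 and 13.3 CPM in LIRKO HFD, against 1.49, 1.47, 7.07 and 5.96 CPM in LIRKO chow. It was at 4.91, 2.79, 17.5, 15.5 and 6.18 CPM in Ctrl HFD and 2.56, 6.41 and 8.21 CPM in Ctrl chow. The LIRKO groups did not overlap but LIRKO HFD replicate 1 came close to LIRKO chow replicate 3, and the difference was 1.41 (SE 0.61, adjusted p = 0.249). Of the others, the tetraspanin gene Cd53 had 1.47, Cd52, which encodes a small surface glycoprotein, 2.07 and the actin-bundling Lcp1 0.70, and none of these passed. Cd53 ranged from 1.15 to 9.47 CPM and Lcp1 from 8.31 to 24.1 CPM. Cd52 was the rarest transcript in counts, shares 14.49% of its exonic length with Crybg2 on the opposite strand, and was at 0.122 to 2.03 CPM.

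None of the 4 class II genes passed, although their estimates in LIRKO lay close together at 1.36 to 1.52. Cd74, encoding the invariant chain that guards the peptide groove, was at 73.9, 150 and 128 CPM in LIRKO HFD libraries, against 15.4, 17.0, 71.2 and 60.1 CPM in LIRKO chow. It was at 49.9, 57.8, 130, 200 and 48.2 CPM in Ctrl HFD and 31.4, 58.0 and 88.2 CPM in Ctrl chow. LIRKO HFD replicate 1 was only just above LIRKO chow replicate 3, and LIRKO chow replicates 1 and 2 were the lowest of all. The difference was 1.52 (SE 0.58, adjusted p = 0.188). H2-Ab1, the beta chain of I-A, was at 25.5, 41.5 and 37.4 CPM in LIRKO HFD, against 5.02, 5.44, 22.8 and 21.1 CPM in LIRKO chow. It was at 14.8, 15.6, 38.3, 51.6 and 14.5 CPM in Ctrl HFD and 9.06, 18.3 and 36.1 CPM in Ctrl chow. In Ctrl HFD replicates 3 and 4 stood well above the other 3, as they did for Cd74, and the LIRKO difference was 1.36 (SE 0.60, adjusted p = 0.265). H2-Aa, the alpha chain of I-A, ranged from 5.06 to 65.7 CPM and H2-Eb1, the beta chain of I-E, from 6.1 to 62.5 CPM, with the lowest values in LIRKO chow replicates 1 or 2 and the highest in Ctrl HFD replicate 4. The 4 genes made up 16.5% to 35% of the summed CPM of the 37.

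Class II promoters are known for a conserved module that ends in an inverted CCAAT box, the Y box, here searched as GATTGG on both strands. It was found in 6 of the 27 windows, against 18.2% of the windows of all 27025 genes, and the 250 bases before the start of both class II genes with a window are shown because both hold it. Capitals mark GATTGG in H2-Aa (GRCm38.p6 chr17:34287824-34288073, minus strand) 49 bases before the start. In H2-Eb1 (GRCm38.p6 chr17:34305617-34305866, plus strand) they mark GATTGG 60 bases and CCAATC 35 bases before it, and RefSeq and M21 place the start of both genes at the same base. The H2-Eb1 window also overlaps an exon of the antisense gene Gm20513.
H2-Aa: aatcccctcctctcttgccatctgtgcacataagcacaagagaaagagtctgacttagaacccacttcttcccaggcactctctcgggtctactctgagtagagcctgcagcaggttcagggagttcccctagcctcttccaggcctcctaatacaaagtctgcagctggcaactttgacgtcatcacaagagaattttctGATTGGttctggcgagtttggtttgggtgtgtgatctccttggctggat
H2-Eb1: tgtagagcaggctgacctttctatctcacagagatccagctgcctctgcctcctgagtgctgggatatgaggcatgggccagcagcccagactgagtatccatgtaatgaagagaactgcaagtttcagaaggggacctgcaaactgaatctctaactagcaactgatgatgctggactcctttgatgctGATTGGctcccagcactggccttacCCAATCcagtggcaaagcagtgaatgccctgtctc

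**Figure D4:**
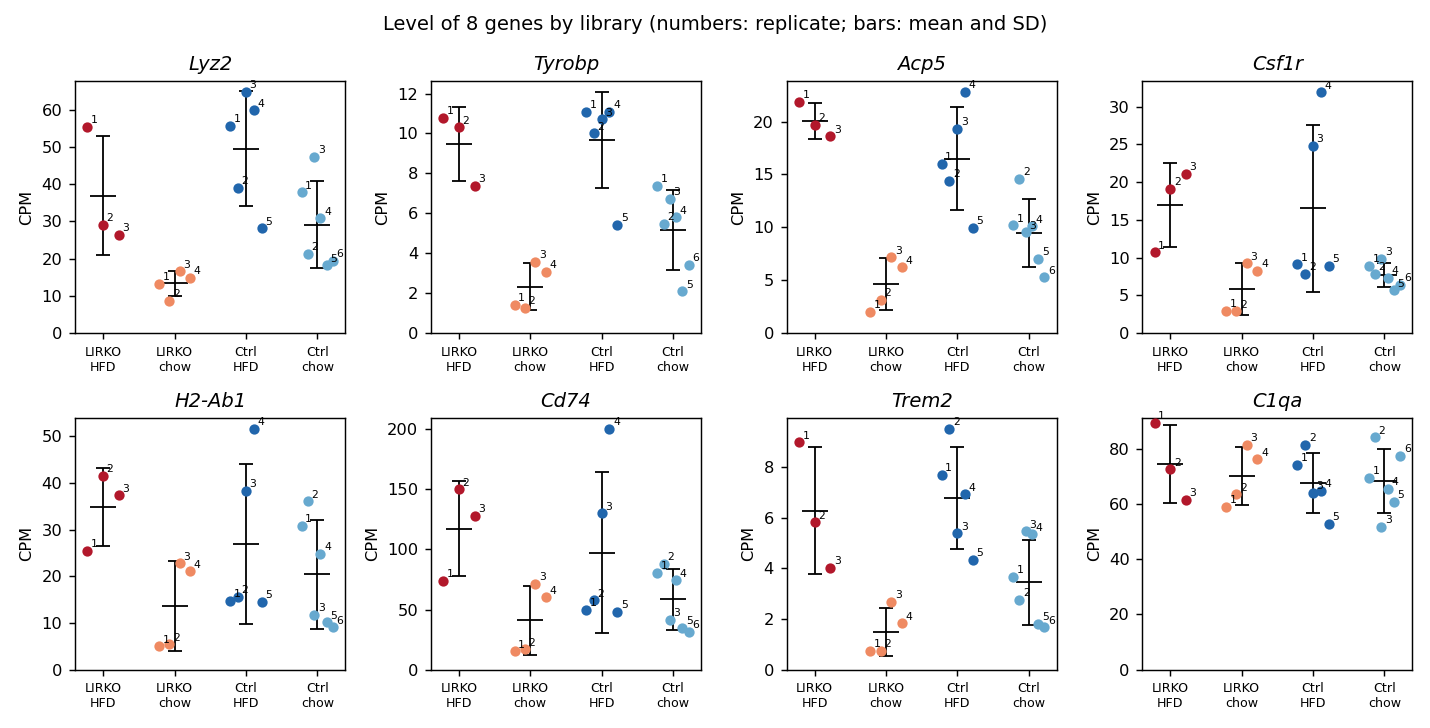
CPM of 8 genes in each library (points, with the replicate number), by group in the order LIRKO HFD, LIRKO chow, Ctrl HFD and Ctrl chow, with mean and SD as bars. Tyrobp, Acp5 and Trem2 separate the LIRKO diets without overlap, H2-Ab1 and Cd74 show the split of LIRKO chow and of Ctrl HFD into low and high libraries, and the C1qa values of all 4 groups overlap.

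The diet comparison within Ctrl asks the same of the libraries labelled Ctrl. None of the 37 genes passed in edgeR, where 9.93% of all genes did, 5.57% as higher and 4.35% as lower. Of the 37, 14 had an unadjusted p under 0.05, as did 34.2% of all genes, and DESeq2 called 6, beside 3920 of all genes. Both counts are near the share over all genes, which covers both directions. The 14 were all higher on HFD. The smallest adjusted p was 0.0546, for Laptm5, with a log2 fold change of 0.98. The median was 0.64, against 0.04 over all genes, and 35 of 37 estimates were above 0. No gene separated the groups without overlap, as 1.43% of all genes did upwards and 2.13% downwards. Without Ctrl HFD replicates 1 and 2 the median was 0.90 and again none passed. The size of the general background depends on the fit, since with only these 2 groups in it 1 of all genes was called instead of 1914.

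Of the named genes in Ctrl, Csf1r had a log2 difference of 1.11 (SE 0.39, adjusted p = 0.0661), Cx3cr1 1.11 (SE 0.44, adjusted p = 0.0905) and Tyrobp 0.91 (SE 0.32, adjusted p = 0.0672). Lyz2 had 0.77 (SE 0.28, adjusted p = 0.0743), Ptprc 0.63 (SE 0.48, adjusted p = 0.353), Itgax 0.60 (SE 0.32, adjusted p = 0.193) and Adgre1 0.49 (SE 0.51, adjusted p = 0.505). The class II genes Cd74 and H2-Ab1 had 0.74 (SE 0.46, adjusted p = 0.256) and 0.40 (SE 0.48, adjusted p = 0.565). C1qa had -0.02 (SE 0.15, adjusted p = 0.948) and Cd68 -0.34 (SE 0.24, adjusted p = 0.315). Most estimates were thus positive in both genotypes, and the 2 diet comparisons use different libraries. Of the other cell types, 4 of 12 endothelial markers (Egfl7, Eng, Tie1 and Esam), 1 of 10 fibroblast markers (Des), 1 of 6 alpha cell markers (Gc) and 1 of 6 tested dendritic cell and monocyte markers (Zbtb46) were called higher on HFD in Ctrl. The median log2 difference in Ctrl was 1.68 for the endothelial and 2.08 for the fibroblast markers, against 0.64 for the 37 genes. It was 0.84 for the alpha cell markers and -0.84 for the acinar markers tested. Of 10 beta cell markers 3 were called lower (G6pc2, Pdx1 and Mafa), and the part of other cell types in these values was not tested.

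Whether the diet difference differed between genotypes was tested by the interaction. None of the 37 passed in edgeR, where 0.00519% of all genes did, 7 had an unadjusted p under 0.05, as did 5.52% of all genes, and DESeq2 called none of them, beside 47 of all genes. The median interaction was 0.94 and 36 of 37 were above 0, which means a larger estimate in LIRKO than in Ctrl. The smallest adjusted p was 0.729, for Coro1a, at 1.24 (SE 0.44). The median was 0.28 without LIRKO chow replicates 1 and 2 and 2.08 without replicates 3 and 4. The interaction of the named genes ran from 0.10 (SE 0.23, adjusted p = 0.993) for C1qa to 1.12 (SE 0.52, adjusted p = 0.895) for Tyrobp. Adgre1 had 0.94 (SE 0.82, adjusted p = 0.981), Csf1r 0.43 (SE 0.62, adjusted p = 0.993), Cd68 0.69 (SE 0.38, adjusted p = 0.929) and Lyz2 0.70 (SE 0.46, adjusted p = 0.97). Ptprc had 0.77 (SE 0.77, adjusted p = 0.984), Cx3cr1 0.57 (SE 0.71, adjusted p = 0.989) and Itgax 0.69 (SE 0.52, adjusted p = 0.981). The class II genes Cd74 and H2-Ab1 had 0.78 (SE 0.74, adjusted p = 0.981) and 0.96 (SE 0.77, adjusted p = 0.981).

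The genotype comparison on chow asks how LIRKO and Ctrl libraries differ without the diet. Lyz2 was lower in LIRKO, the only one of the 37 to pass in that direction, where 2.2% of all genes were called lower. None passed as higher, where 2.95% of all genes did, and 5.15% of all genes passed in either direction. Lyz2 averaged 13.3 ± 3.38 CPM in LIRKO chow and 29.1 ± 11.7 CPM in Ctrl chow (SD, n = 4 and 6), and its values did not overlap, with a log2 fold change of -1.13 (SE 0.31, adjusted p = 0.0433). It was also the only one of the 37 to lie below Ctrl chow in every library, as 5.21% of all genes did, and none lay above, as 6.46% did. The adjusted p of Lyz2 was 0.284 without LIRKO chow replicates 1 and 2, 0.151 without replicates 3 and 4, and 0.327 with the pairs summed. Lyz2 also missed the threshold without any 1 LIRKO chow library (adjusted p = 0.0807 to 0.132), without Ctrl chow replicate 1, 3 or 4 (adjusted p = 0.0675 to 0.0854) and without LIRKO HFD replicate 2 (adjusted p = 0.0531). It did so with upper-quartile scaling (adjusted p = 0.0501) and with no filter (adjusted p = 0.0519). DESeq2 called 5 of the 37, all lower, beside 1638 of all genes in either direction. At an unadjusted p under 0.05 there were 12 of the 37, all lower, against 18.8% of all genes in either direction.

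The median of the 37 on chow was -0.63, against -0.02 over all genes, with 33 of 37 estimates below 0. Without LIRKO chow replicates 1 and 2 the median was -0.01 with 18 of 37 above 0, and without replicates 3 and 4 it was -1.815 with 7 genes called lower. The lower level of the set as a whole on chow was thus not seen without LIRKO chow replicates 1 and 2. Tyrobp had -1.15 (SE 0.36, adjusted p = 0.0734), Adgre1 -1.04 (SE 0.57, adjusted p = 0.344), Cx3cr1 -0.95 (SE 0.49, adjusted p = 0.307) and Itgax -0.87 (SE 0.36, adjusted p = 0.189). Ptprc had -0.60 (SE 0.53, adjusted p = 0.587), H2-Ab1 -0.59 (SE 0.52, adjusted p = 0.589), Cd74 -0.51 (SE 0.50, adjusted p = 0.626), Cd68 -0.41 (SE 0.25, adjusted p = 0.422) and Csf1r -0.40 (SE 0.42, adjusted p = 0.666). C1qa, at 0.04 (SE 0.15, adjusted p = 0.924), was 1 of 4 genes above 0, with Cd14, Fcgr1 and Itgam. None of the 12 endothelial or 10 fibroblast markers passed on chow, and of the 6 alpha cell markers Gc and Ttr were higher in LIRKO. The beta cell marker Pdx1 (adjusted p = 0.00452), the PP cell marker Pyy (adjusted p = 0.0301) and Mmp8 were lower.

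The genotype comparison on HFD gave no call among the 37, where 0.508% of all genes passed, 0.316% as higher and 0.192% as lower. None had an unadjusted p under 0.05, as 7.81% of all genes did, and DESeq2 called none, beside 292 of all genes. The median was 0.23, against -0.04 over all genes, and 30 of 37 estimates were above 0. Without Ctrl HFD replicates 1 and 2 the median was 0.003. Only Cd52 reached separation of the groups, which 2.51% of all genes showed upwards, at 1.42, 1.83 and 2.03 CPM in LIRKO HFD, against 0.844, 1.16, 1.1, 0.819 and 0.396 CPM in Ctrl HFD, and it was named after its values were seen. None separated downwards, as 2.5% of all genes did. Its log2 fold change was 1.04 with an adjusted p of 0.697.

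Of the named genes on HFD, H2-Ab1 had 0.37 (SE 0.57, adjusted p = 0.922), Cd68 0.29 (SE 0.28, adjusted p = 0.862), Cd74 0.27 (SE 0.55, adjusted p = 0.944), Ptprc 0.18 (SE 0.58, adjusted p = 0.97) and C1qa 0.14 (SE 0.17, adjusted p = 0.899). Csf1r had 0.04 (SE 0.46, adjusted p = 0.993), Tyrobp -0.03 (SE 0.38, adjusted p = 0.993), Adgre1 -0.11 (SE 0.62, adjusted p = 0.984) and Itgax -0.18 (SE 0.39, adjusted p = 0.95). Cx3cr1 had -0.39 (SE 0.53, adjusted p = 0.911) and Lyz2 -0.42 (SE 0.35, adjusted p = 0.814). The standard errors leave room for differences of either sign in most of these genes.

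Other genes of the myeloid programme were taken from lists by function. Of 56 other myeloid signalling and effector genes, 51 were tested and 7 rose on HFD in LIRKO, where 1.06% of all genes did, with a median of 1.45. Cebpa, encoding the myeloid transcription factor C/EBP alpha, averaged 8.81 ± 0.614 CPM in LIRKO HFD and 2.69 ± 0.917 CPM in LIRKO chow (SD, n = 3 and 4), with a log2 fold change of 1.71 (adjusted p = 0.00517). Ncf1, the p47phox subunit of the oxidase, had 1.45 (adjusted p = 0.0161), Irf8, a transcription factor of monocytes and macrophages, 1.67 (adjusted p = 0.019), and Apoe, a lipid carrier made by macrophages and other cells, 1.66 (adjusted p = 0.0328). In Ctrl 3 of the 51 rose on HFD, near the 5.57% of all genes that did. They were Ncf1 with 1.11 (adjusted p = 0.022), Cebpa with 0.83 (adjusted p = 0.0338) and the scavenger receptor gene Marco with 4.30 (adjusted p = 0.045). Marco rested on Ctrl HFD replicates 3 and 4, at 1.18 and 2.99 CPM beside 0 to 0.0496 CPM in the other 3, and 0 to 0.176 CPM in Ctrl chow. Without LIRKO chow replicates 1 and 2, or with the pairs summed, none of these genes passed in LIRKO, and without Ctrl HFD replicates 1 and 2 none passed in Ctrl.

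Of 16 tested genes of the class II pathway outside the 4, from a list of 20, 3 rose on HFD in LIRKO, where 1.06% of all genes did, and the median was 0.33. These were H2-DMb1, a chain of the peptide exchanger H2-DM, with 1.84 (adjusted p = 0.0206), the lysosomal protease gene Ctsh with 1.32 (adjusted p = 0.0269) and Cd83, which stabilises class II at the surface, with 1.75 (adjusted p = 0.0403). In Ctrl 1 of the 16 rose on HFD, near the 5.57% of all genes that did. It was H2-DMa, the other chain of H2-DM, with 1.03 (adjusted p = 0.0306). The 3 calls in LIRKO were lost without LIRKO chow replicates 1 and 2 and with the pairs summed, and that in Ctrl without Ctrl HFD replicates 1 and 2 (adjusted p = 0.166).

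The ligands and chemokines that act on myeloid cells gave calls on chow between the genotypes, of which those of Cx3cl1 and Gas6 were also made without either LIRKO chow pair and with the pairs summed. Of 25 listed, 22 were tested, and 3 were lower, where 2.2% of all genes were, and 1 was higher in LIRKO chow, where 2.95% of all genes were. Cx3cl1, encoding fractalkine, the ligand of Cx3cr1, was at 2.96, 3.32, 3.41 and 3.57 CPM in LIRKO chow, against 7.06, 10.9 and 13.9 CPM as the lowest, median and highest of Ctrl chow. The groups did not overlap, all 4 LIRKO chow libraries lay close together, and the log2 fold change was -1.72 (adjusted p = 0.000157). It was -1.65 without LIRKO chow replicates 1 and 2 (adjusted p = 0.0075), -1.77 without replicates 3 and 4 (adjusted p = 0.00903) and -1.72 with the pairs summed (adjusted p = 0.0113). On HFD the values were 5.81, 5.73 and 5.41 CPM in LIRKO, against 6.4, 7.63, 12.3, 8.6 and 11 CPM in Ctrl. These also did not overlap, but no gene of the list passed on HFD.

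Gas6, a ligand of the TAM receptors that bridges dying cells to phagocytes, averaged 4.45 ± 0.813 CPM in LIRKO chow and 14.5 ± 2.29 CPM in Ctrl chow (SD, n = 4 and 6), and fell by 1.70 on the log2 scale (adjusted p = 0.000451). It passed with the pairs summed (adjusted p = 0.0217) and without either pair (adjusted p = 0.00618 and 0.0335). Cxcl16, a chemokine and scavenger receptor, averaged 15 ± 1.16 CPM in LIRKO chow and 29.2 ± 6.5 CPM in Ctrl chow and fell by 0.96 (adjusted p = 0.00218), with an adjusted p of 0.0642 when the pairs were summed. C3, the central complement component, was higher, at 23.2 ± 2.36 CPM in LIRKO chow and 6.48 ± 3.89 CPM in Ctrl chow, with 1.84 (adjusted p = 0.0115), and 0.115 when the pairs were summed. Of the 51 myeloid genes on chow, Spp1, encoding osteopontin and also a marker of duct cells, was higher at 2.10 (adjusted p = 0.00884), while Gpnmb, a glycoprotein of lipid-laden macrophages and other cells, at -1.67 (adjusted p = 0.00906) and Plcg2, a phospholipase of immune receptor signalling, at -0.58 (adjusted p = 0.049) were lower. With the pairs summed these 3 had adjusted p-values of 0.0948, 0.154 and 0.374.

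On HFD between the genotypes, 0 of the 51, 16 and 22 tested genes passed in edgeR. In the interaction 0 passed as well. In Ctrl 1 of the 22 ligand genes rose on HFD, Tgfb1, encoding TGF-beta 1, with 1.07 (adjusted p = 0.0493), where 5.57% of all genes rose. That call was lost without Ctrl HFD replicates 1 and 2 and with the LIRKO chow pairs summed. No ligand gene passed in LIRKO in the main edgeR fit. DESeq2 called 3 higher on HFD in LIRKO (Ccl3, Cx3cl1 and Tgfb1), beside 1077 of all genes. edgeR called 3 there without LIRKO chow replicates 3 and 4, beside 787 of all genes, and 3 without Ctrl HFD replicates 1 and 2, beside 1191.

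Markers of other cell types were read in the same libraries. The sum of 12 endothelial markers was 361, 334 and 285 CPM in LIRKO HFD, against 20.5, 24.6, 203 and 174 CPM in LIRKO chow. It was 340, 359, 192, 266 and 178 CPM in Ctrl HFD and 43.2, 67.6 and 228 CPM in Ctrl chow. LIRKO chow replicates 1 and 2 were lowest here as well. The sum of 10 fibroblast and stellate markers was 34.6, 41.5 and 42.1 CPM in LIRKO HFD, against 1.35, 1.37, 24.2 and 19.8 CPM in LIRKO chow. It was 21.2, 26.2, 76.7, 64.5 and 14.3 CPM in Ctrl HFD and 2.37, 3.86 and 17.8 CPM in Ctrl chow. The sum of 6 alpha cell markers was 731, 3100 and 3860 CPM in LIRKO HFD, against 663, 672, 2120 and 2280 CPM in LIRKO chow. It was 592, 1310, 4110, 4430 and 624 CPM in Ctrl HFD and 499, 1210 and 1950 CPM in Ctrl chow, and it overlapped between the diets in both genotypes. The sum of 10 acinar markers was 238, 79.6 and 59.7 CPM in LIRKO HFD, against 221, 276, 56.1 and 25.3 CPM in LIRKO chow. It was 101, 70.2, 153, 29.2 and 82.9 CPM in Ctrl HFD and 7.59, 62.4 and 588 CPM in Ctrl chow. LIRKO chow replicates 1 and 2 were thus above replicates 3 and 4 for acinar markers and below them for the other 3 lists. Of the 12 endothelial markers 1 was called higher between the diets in LIRKO, Esam, and none of the 10 fibroblast markers or 6 alpha cell markers. The median log2 fold change on HFD in LIRKO was 1.74 for the endothelial and 2.05 for the fibroblast markers, against 1.52 for the 37 genes. All 12 endothelial and all 10 fibroblast estimates were above 0. The median was 0.95 for the alpha cell markers and -0.26 for the acinar markers tested. A rise on HFD in LIRKO was thus not particular to the 37 genes. Of 10 beta cell markers Mafa, a transcription factor of mature beta cells, was lower on HFD in LIRKO at -2.24 (adjusted p = 0.0483). The part of other cell types in the differences of the 37 genes was not tested.

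**Figure D5:**
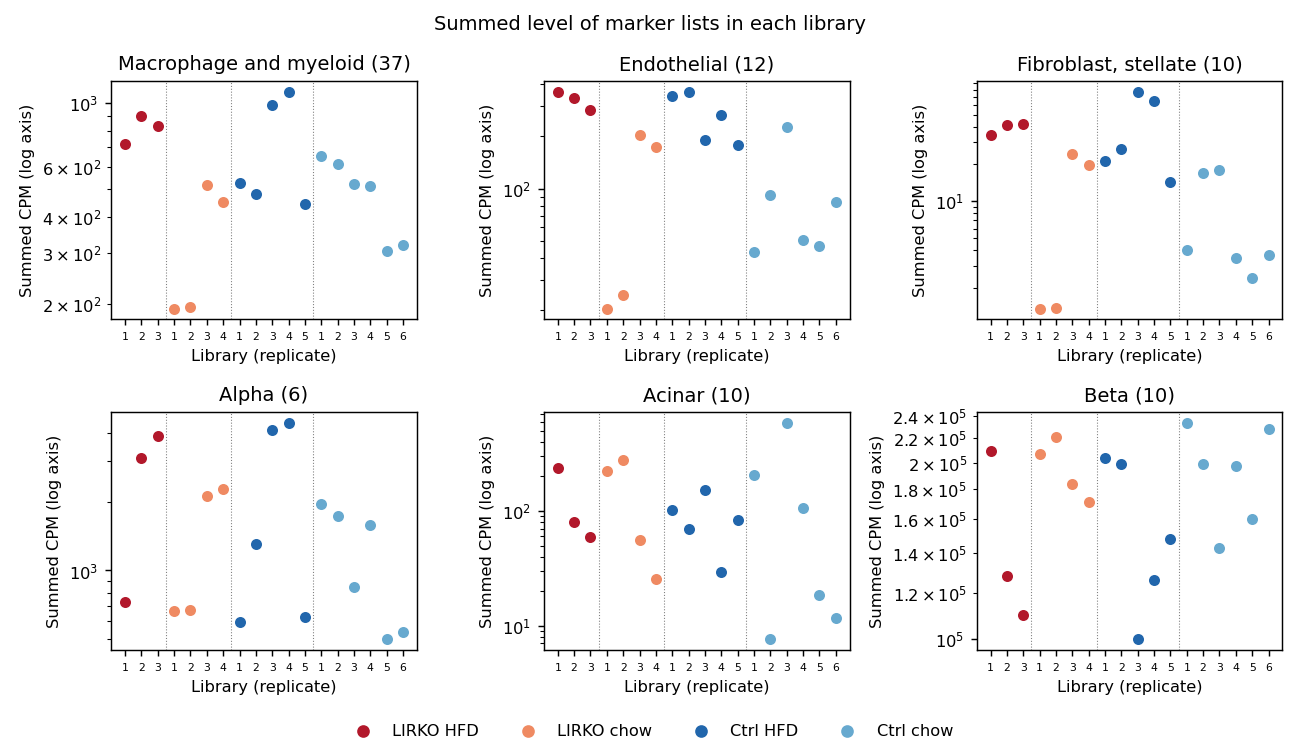
Summed CPM (log axes) of 6 marker lists in each of the 18 libraries, in the order LIRKO HFD, LIRKO chow, Ctrl HFD and Ctrl chow, with the number of genes in each list. LIRKO chow replicates 1 and 2 are the lowest points of the myeloid, endothelial and fibroblast panels, and Ctrl HFD replicates 3 and 4 are the highest of the myeloid, fibroblast and alpha cell panels.

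Most markers of T and NK cells and of neutrophils were at or near 0. Of 16 T and NK cell markers, 13 were under 0.5 CPM in every library and at 0 in at least 9 of the 18, among them Cd3e, Cd3d, Cd8a and Nkg7. Their sum ran from 6.68 to 10.9 CPM in LIRKO HFD, 1.96 to 6.13 in LIRKO chow, 3.35 to 13.6 in Ctrl HFD and 1.96 to 8.92 in Ctrl chow, most of it from Il7r, Lck and Cd4. Of 10 neutrophil markers, 9 were under 0.5 CPM in every library, and S100a8 and Ly6g were at 0 in at least 9. The tenth, Mmp8, encoding a neutrophil collagenase, was at 0.232, 0.283 and 0.276 CPM in LIRKO HFD, against 0, 0, 0.02 and 0 CPM in LIRKO chow. It was at 0.645, 0.372, 0.355, 0.126 and 0.264 CPM in Ctrl HFD and 0 to 0.352 CPM in Ctrl chow. Mmp8 was called higher on HFD in LIRKO (adjusted p = 0.0213) and lower in LIRKO on chow (adjusted p = 0.0333), at levels too low for a fold change to be given. The neutrophil sum ran from 0.232 to 0.426 CPM in LIRKO HFD, 0.0549 to 0.245 in LIRKO chow, 0.396 to 0.943 in Ctrl HFD and 0.0317 to 0.801 in Ctrl chow. Of 14 dendritic cell and monocyte markers, Flt3, Clec10a, Cd209a and Ly6c2 were at 0 in at least 9 libraries. Most of the dendritic cell sum came from Naaa and Bst2, at means of 44.7 and 15.3 CPM.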

How the data were processed

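RNA-seq of sorted mouse beta cells was analysed in 18 libraries. The deposited values are whole-number read counts per gene. The authors used STAR, featureCounts and the GRCm38 build, per the submitters' processing notes, and library preparation used a directional kit, per the labels' protocols. Neither versions nor an annotation release is stated in the sources used here, nor whether counting used strand. Of 53090 gene IDs, 52489 were named from GENCODE M21. The 601 without a name held at most 0.0176% of a library's counts and stayed in the tests.

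Genes were filtered with filterByExpr (minimum count 10), which left 19284, and scaled by TMM. edgeR 4.0.16 in R 4.3.3 fitted a quasi-likelihood model with 1 mean per group over all 18 libraries, which then share 1 estimate of the spread. The 5 comparisons were the 2 genotype and 2 diet differences and the interaction, with Benjamini-Hochberg adjustment within each and a threshold of 0.05. Every adjusted p in the report is from this test unless DESeq2 1.42.0 is named. CPM are on TMM-scaled sizes, and CPM per kb divide by the merged length of all exons of a gene in M21. On simulated counts with 200 changed genes, the test recovered 90% of 4-fold and 50% of 2-fold changes for HFD against chow in LIRKO. For the interaction it recovered 69% of 4-fold and 22% of 2-fold changes. The simulated libraries were drawn independently, without near-identical pairs or shifts shared by many genes, so recovery in these data may be lower.

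The 37 genes and all lists were chosen with earlier results of these data known. Fold changes with SE and adjusted p are given where one of the 37 passes, and for 11 named genes (Adgre1, Csf1r, Cd68, Lyz2, C1qa, Tyrobp, Ptprc, Cx3cr1, Itgax, Cd74 and H2-Ab1) in every comparison. Estimates of further genes are shown to account for all 37. Of each list of related genes, up to 4 with the smallest p past the threshold are named in a comparison, with fold change and adjusted p. Markers of other cell types that passed were named after their values were seen. Alternatives were other scalings, DESeq2, no filter, a robust fit, only the 2 groups compared, near-identical libraries summed and libraries left out. Leaving out either LIRKO chow pair was chosen after seeing the data. Drawing used matplotlib 3.10.9.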

Additional observations from a re-analysis of the deposited data

Results flagged for a closer look

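Among 114 combinations of a gene, or the sum of the 37 genes, and a group of 4 to 6 libraries, 2 had a library far from the others of its group. For independent values from 1 normal distribution the rule flags about 1 in 20. That rate does not hold here, because the genes move together. In LIRKO chow, replicates 1 and 2 lay below 3 and 4 in all 37 genes, so a single library could hardly stand apart. Tyrobp, encoding DAP12, was at 5.41 CPM in Ctrl HFD replicate 5, while the other 4 Ctrl HFD libraries lay between 10.0 and 11.1 CPM. Itgax, encoding CD11c, was at 12 CPM in Ctrl chow replicate 3, while the other 5 Ctrl chow libraries lay between 4.41 and 6.7 CPM.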

How the results depend on the processing

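The call of 12 genes on HFD in LIRKO depended on which libraries were in the fit. LIRKO chow holds 2 pairs of near-identical libraries, and whether these are 4 samples or repeats of 2 is not settled. Without LIRKO HFD replicates 1, 2 and 3 in turn, 3, 2 and 4 genes were called, beside 100, 56 and 67 of all genes. No paired analysis was possible because the labels give no replicate numbers that groups share. Leaving out LIRKO chow replicates 1 and 2, or 3 and 4, was chosen after seeing the data, and the cause of the changes below was not tested.

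Counts among the 37 genes were as follows. For LIRKO against Ctrl on chow, 1 became 0 with upper-quartile scaling, no filter, pairs summed or without LIRKO chow 1 and 2, 2 without Ctrl HFD 1 and 2, 5 in DESeq2, 7 without LIRKO chow 3 and 4, and 0 to 4 with 1 library left out. For HFD against chow in Ctrl, 0 became 4 with upper-quartile scaling, beside 2224 of all genes, and 6 in DESeq2. It became 1 without either LIRKO chow pair, and 0 to 6 with 1 library left out. For HFD against chow in LIRKO, 12 became 19 in DESeq2, 0 with pairs summed or without LIRKO chow 1 and 2, 27 without 3 and 4, 21 with only the 2 groups, and 0 to 14 with 1 library left out. Without LIRKO chow replicate 1 only Acp5 was called, without replicate 2 none, each beside 55 of all genes.

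Counts over all genes also moved. LIRKO against Ctrl on chow gave 1638 in DESeq2, 193 with pairs summed, 1765 without Ctrl HFD 1 and 2, 477 without LIRKO chow 1 and 2, 256 without 3 and 4, 1653 with only the 2 groups and 431 to 1126 with 1 library left out. On HFD the genotypes gave 292 in DESeq2, 54 with pairs summed, 193 without Ctrl HFD 1 and 2, 19 with only the 2 groups and 10 to 162 with 1 left out. HFD against chow in Ctrl gave 3920 in DESeq2, 457 with no filter, 114 with pairs summed, 34 without Ctrl HFD 1 and 2, 983 without LIRKO chow 1 and 2, 1043 without 3 and 4, 1 with only the 2 groups and 69 to 3877 with 1 left out. In LIRKO it gave 1077 in DESeq2, 250 with no filter, 7 with pairs summed, 1191 without Ctrl HFD 1 and 2, 3 without LIRKO chow 1 and 2, 787 without 3 and 4, 3403 with only the 2 groups and 55 to 502 with 1 left out. The interaction gave 47 in DESeq2, 0 with pairs summed or without LIRKO chow 3 and 4, 8 without Ctrl HFD 1 and 2, and 0 to 3 with 1 left out.

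Medians of the 37 without LIRKO chow 3 and 4 were -1.815 on chow between genotypes, 2.764 between diets in LIRKO and 2.079 in the interaction, which was 0.277 without 1 and 2. With 1 library left out they ranged from -1.031 to -0.378 (genotype, chow), 0.099 to 0.426 (genotype, HFD), 0.493 to 0.784 (diet, Ctrl), 1.31 to 1.921 (diet, LIRKO) and 0.682 to 1.299 (interaction).

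Signs reversed only in estimates that did not pass. Between genotypes on chow these were, without LIRKO chow 1 and 2, Csf1r at 0.190, Ptprc at 0.103, Cd74 at 0.168 and H2-Ab1 at 0.101, and C1qa at -0.119 without 3 and 4 and -0.041 to 0.113 with 1 library left out. On HFD they were Tyrobp at 0.012 with no filter, and without Ctrl HFD 1 and 2 Csf1r at -0.361, Cd68 at -0.014, Tyrobp at 0.063, Ptprc at -0.295, Cx3cr1 at 0.203 and Cd74 at -0.101. With 1 left out on HFD, Csf1r ran from -0.147 to 0.421, Tyrobp from -0.178 to 0.132, Ptprc from -0.054 to 0.525, Adgre1 from -0.328 to 0.374 and C1qa from -0.006 to 0.269. Between diets in Ctrl, C1qa was 0.007 with RLE scaling, 0.134 with upper-quartile scaling, 0.001 in DESeq2, 0.025 with only the 2 groups and -0.089 to 0.061 with 1 left out, and Cd68 was 0.013 without Ctrl HFD 1 and 2. Between diets in LIRKO, C1qa was -0.085 without LIRKO chow 1 and 2 and -0.07 to 0.205 with 1 left out.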
